A study of Homo sapiens with 3 samples.

Results

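Astrocytes at day 210 of differentiation that had received retinoic acid (RA) were compared with astrocytes of the same age that had received fibroblast growth factor 8 (FGF8). These are 2 of the 3 arrays of the study, chosen by their sample titles, with 1 array for each. The array outside the comparison, from neuroepithelial cells at day 17 that received no morphogen, is given as a level beside them. All cells came from H9, an established human embryonic stem cell line, which was taken off mouse embryonic fibroblasts and grown as embryoid bodies, and either morphogen was present from day 10 to day 21. The labels do not say whether an RNA sample came from 1 culture or a pool. With 1 array per group, no difference below has a replicate check, a standard error or a p-value, and the precision is limited by that number.

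The neural tube acquires regional identity through signals that turn on different sets of homeobox genes along its length. Retinoic acid enters the nucleus, binds its receptors and turns on HOX genes, which mark the hindbrain and spinal cord, while FGF8 is made by signalling centres of the rostral brain, at the midbrain-hindbrain border and the front edge of the forebrain. Astrocytes arise from progenitors of every region and keep part of this regional code. They also supply the brain with secreted and surface proteins that act on synapses, vessels, matrix and immune cells, and their precursors divide before they mature.

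Expression was measured as a signal for each probe set, brought to a common distribution by quantile normalization. Signals under 26.4, the median over every probe set that is not a control, were raised to that floor. Where 1 side lay at the floor the difference is only a bound and carries the words at least. A gene at the floor on both astrocyte arrays was not compared. Of 19775 genes, 12958 were compared, 10969 of them above the floor on both astrocyte arrays and 1989 with a bound. In RA, 1255 genes (9.69% of those compared) were higher by 2-fold or more and 1018 (7.86%) were lower by as much; these are the genes called higher or lower below. Each gene list is read against those shares. Where a difference came within 2-fold, or first passed it, under another setting, its log2 value under that setting follows in brackets. These settings were a floor at the 30th or 70th percentile (lower or higher floor) or none, or another scaling. Others averaged all probe sets of a gene or left out the less specific probe set types (_s_at and _x_at). A gene left uncompared under a setting has no value there and no bracket, as for HOXD8, EN1 and LIF with the higher floor. A missing bracket is thus no sign that a dim gene is stable. The 4-fold mark was passed by 324 genes upward and 343 downward, and the median difference of all genes compared was 0.0098 on the log2 scale. The neuroepithelial level of these genes is given for orientation only, and the same counts over all genes compared were not made. Among genes lower in RA, 498 had a neuroepithelial level at or above that of FGF8, 347 had one between the astrocyte levels and 173 had one at or below that of RA. Among genes higher in RA, the neuroepithelial level was at or below that of FGF8 for 671, between for 468 and at or above that of RA for 116.

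The array controls bear on every result. The 3' to 5' signal ratio of ACTB, a measure of RNA shortening, was 6.67 in RA and 6.63 in FGF8 against 1.33 in neuroepithelial cells, and that of GAPDH was 1.79, 1.65 and 0.98. The astrocyte arrays were thus alike in this and the neuroepithelial array stood apart, and the part of that in its levels, given below for orientation, was not tested. The spike-in controls were brighter in RA by 2.40-fold in the deposited values (log2 1.27 ± 0.14, SD, n = 18 probe sets), and their part in the differences was not tested. Among 10 ribosomal protein genes 0 were higher and 0 lower by 2-fold, with a median of -0.18 that turned to 0.25 with the deposited scaling and 0.20 with equal array medians. Among 10 reference genes 1 passed 2-fold, HPRT1 at 2.76-fold lower (-0.73 with probe sets averaged) in RA, and the median was -0.30.

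**Figure D1:**
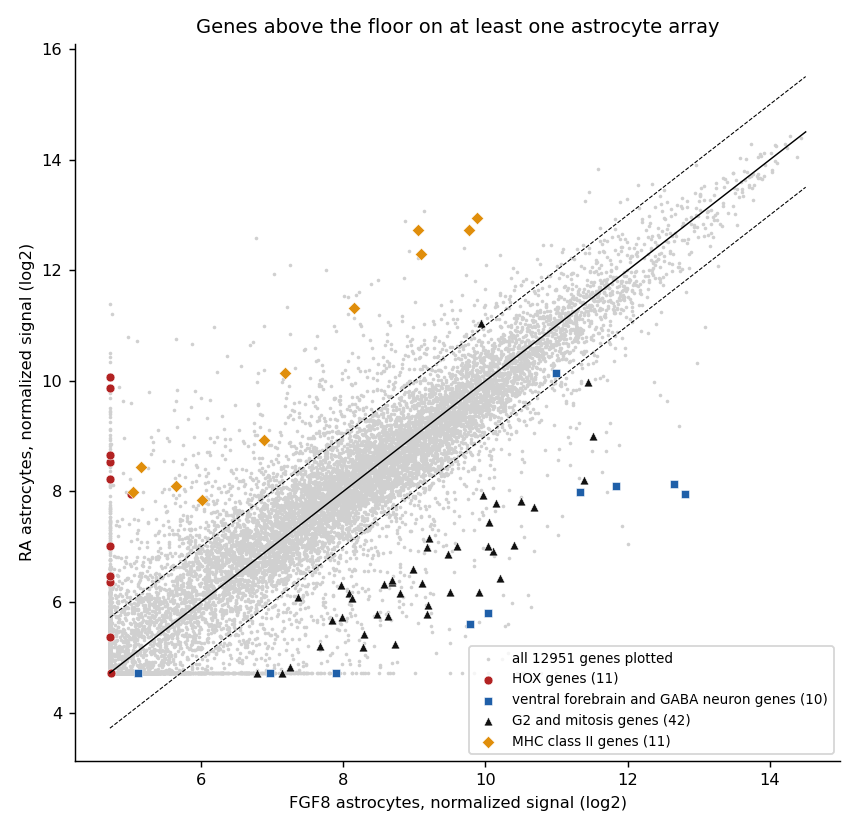
Log2 normalized signal of each gene in the FGF8 array (horizontal) and the RA array (vertical), 1 array per group, for 12951 genes above the floor on at least 1 of them; the solid line marks equal signals, the dashed lines 2-fold, and points on the left or lower edge lie at the floor. HOX genes (red) and MHC class II genes (orange) lie above the equal line, apart from 1 HOX gene near the floor on both arrays, and ventral forebrain genes (blue) and all but 1 of the mitosis genes (black) lie below it.

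Both astrocyte arrays carried the markers of the label. All 19 astrocyte markers analysed lay above the floor in RA and all 19 did in FGF8, but 15 of them did in neuroepithelial cells too; summed signals were 96808, 82405 and 32096. Those at the floor in neuroepithelial cells were GFAP, S100B, AQP4 and NFIX. In RA against FGF8, the list had 5 higher and 1 lower. GFAP, the astrocyte intermediate filament, had a signal of 14574 in RA, 3053 in FGF8 and at the floor in neuroepithelial cells, and was 4.77-fold higher in RA; its other bright probe set was 2.13-fold higher. S100B, a calcium-binding protein of astrocytes, stood at 2696 in RA and 1685 in FGF8, and AQP4, the water channel of astrocyte endfeet, at 4132 and 4057. Both lay within 2-fold, as did the hyaluronan receptor CD44 (10076 and 6914) and the glial factors SOX9 (3938 and 5211) and NFIA (1475 and 2923). The glutamate transporter SLC1A3 was the marker that was lower, at 2011 in RA against 8684 in FGF8, or 4.32-fold lower. ALDH1L1, a folate enzyme used as a marker of mature astrocytes, was dim on all arrays, at 45.5, 43.4 and 38.0 in RA, FGF8 and neuroepithelial cells.

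Markers of other cells were unequal between the cultures. In bulk RNA, fewer cells of a type and less RNA per cell cannot be told apart. Of 17 neuron markers compared, 4 were higher and 4 lower in RA, and 16 lay above the floor in RA and 13 in FGF8, with summed signals of 31178 and 28955; RBFOX3, SYN1 and ISL1 were at the floor on both. Doublecortin, DCX, a microtubule protein of migrating young neurons, was 583 in RA and 6738 in FGF8, or 11.6-fold lower in RA. The light neurofilament NEFL was 4.41-fold lower, while STMN2, a microtubule regulator of growing axons, was at least 5.79-fold higher (0.68 with the higher floor) at 153 against the floor, and the vesicle protein SYT1 was 5.09-fold higher. So each culture was ahead in some neuron genes. Of 8 oligodendrocyte lineage markers, 1 differed by 2-fold: the growth factor receptor PDGFRA, at 794 in RA and 5997 in FGF8. Above the floor lay 7 of 14 in RA and 5 in FGF8, with summed signals of 2831 and 7714. The lineage factor OLIG2 was 64.6 and 106, and SOX10, MOG and MAG were at the floor on both. Among mesenchyme and pericyte markers, ACTA2, the smooth muscle actin, was 18.9-fold higher and TAGLN, an actin-binding protein, 17.3-fold higher in RA, while the collagen gene COL1A2 was 7.19-fold lower. Summed signals of that list were 6391 in RA and 1180.2 in FGF8, 6 and 6 of 15 markers lay above the floor, and COL1A1, COL3A1, LUM, DCN and POSTN were at the floor on both. Of 14 microglia markers 12 were at the floor on both arrays, among them PTPRC, AIF1, CX3CR1 and TYROBP, and of 10 endothelial markers 7 were. Of 4 choroid plexus markers compared 2 were higher and 2 lower, FOLR1, a folate receptor, at 115 in RA and 1114 in FGF8, and TTR was at the floor on both. The part of these markers in the differences below was not tested.

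Genes of regional identity and of the cell surface or the extracellular space were among the largest differences. Among genes above the floor on both arrays, the hyaluronan synthase HAS3 differed most upward, with a signal of 2375 in RA and 27.0 in FGF8, just above the floor, or 88.0-fold higher. The secreted metalloprotease ADAMTS15 was 56.4-fold higher, SPARCL1, the synapse-inducing protein hevin, 55.9-fold higher, and the teneurin TENM4, a transmembrane adhesion protein, 49.5-fold higher. Then came the membrane glycoprotein TPBG (34.3-fold higher), the protocadherin PCDH17 (32.7-fold higher), IGFBP5 (29.8-fold higher), the secreted neural glycoprotein NELL2 (28.6-fold higher), the glutathione transferase MGST1 (27.7-fold higher) and podoplanin, PDPN, a mucin-like surface protein (27.7-fold higher). Neuroepithelial cells also held TPBG (1769 against 1730.5 in RA), NELL2 (4132 against 4374) and MGST1 (2870.2 against 1633), so for these the FGF8 array was the low one of the 3. Largest among the bounds was NR2F1, a nuclear receptor, at 2679 in RA and the floor in FGF8, or at least 102-fold higher. ZNF503, a zinc-finger repressor, was at least 54.9-fold higher, the long noncoding RNA RMST at least 52.4-fold higher and the calcium pump regulator SLN at least 49.1-fold higher.

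In the other direction, the zinc-finger factor SP8, of the forebrain, was 38.6-fold lower at 31.2 in RA and 1204 in FGF8. KCTD12, an auxiliary subunit of the GABA-B receptor, was 37.6-fold lower, UBE2QL1 30.7-fold lower, the GABA-A receptor subunit GABRQ 26.5-fold lower, the APC-binding protein AMER2 26.2-fold lower and F-spondin, SPON1, a secreted matrix protein, 22.3-fold lower. Bounds in this direction were led by the imprinted gene DLK1, a non-canonical Notch ligand, which was at the floor in RA, 2029 in FGF8 and 15786 in neuroepithelial cells, or at least 76.9-fold lower. The fatty acid carrier FABP5 was at least 67.0-fold lower and NNAT, another imprinted gene, at least 52.6-fold lower. All 3 were bright in neuroepithelial cells too (1554 for FABP5 and 4239 for NNAT). MPPED2, a phosphodiesterase, was at least 56.3-fold lower. Synaptoporin, SYNPR, a synaptic vesicle protein, was at least 55.3-fold lower and faint in neuroepithelial cells at 36.6, so here the FGF8 array stood alone. For genes past 2-fold, other bright probe sets of the same gene also passed it in the same direction in 78.1% of 392 cases upward and 66.4% of 351 downward.

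HOX genes were on the RA side. Of 10 genes analysed of paralogue groups 1 to 5, the groups of the hindbrain and neck, 6 were higher in RA, 0 were lower and 3 (HOXB1, HOXC4 and HOXD1) were at the floor on both arrays; the median of the 7 compared was 3.51. HOXB3 had a signal of 1076 in RA, at the floor in FGF8 and 56.3 in neuroepithelial cells. HOXB2 followed at 403, at the floor and 32.8 in the same order, HOXA2 at 369, at the floor and at the floor, and HOXB4, which comes on in the lower hindbrain, at 301, at the floor and at the floor. Each was high in RA only: HOXB3 was at least 40.8-fold higher, HOXB2 at least 15.3-fold higher, HOXA2 at least 14.0-fold higher and HOXB4 at least 11.4-fold higher. HOXB5 was the sole one of these above the floor in FGF8, at 32.3 against 248 in RA, or 7.67-fold higher. HOXD4 was at least 3.12-fold higher (0.82 with probe sets averaged). The remaining compared gene, HOXC5, was at the floor in RA and 26.7 in FGF8, which is barely above it (-1.49 with the lower floor, -2.14 without one). Of 18 genes of groups 6 to 13, the groups of the trunk, 14 were at the floor on both arrays. HOXB7 stood out at 934 in RA and the floor elsewhere, or at least 35.4-fold higher, HOXB6 was at least 4.88-fold higher (0.43 with the higher floor) and HOXD8 at least 3.35-fold higher. HOXB8 was dim in RA, at 41.4, and its bound of 1.57-fold does not reach 2-fold (2.12 with the lower floor, 3.45 without one, 1.78 with probe sets averaged). None of the groups 9 to 13 came above the floor, so the most caudal HOX signal was that of group 8. Since most of these genes were compared only through being above the floor in RA, their counts and medians follow in part from that, and HOXA genes other than HOXA2 were not analysed here.

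Other genes of the hindbrain leaned the same way, with 5 higher and 0 lower of 11 compared (median 0.99). These were 3 Iroquois factors, a HOX cofactor and the gastrulation brain factor GBX2. All 11 compared lay above the floor in RA and 9 did in FGF8. Some were thus compared only through RA, and the count and median follow in part from that. IRX3, an Iroquois homeobox gene, was 522 in RA, at the floor in FGF8 and 76.5 in neuroepithelial cells, or at least 19.8-fold higher. IRX1 was 753 in RA and 89.5 in FGF8, and IRX5 494 and 80.7, which makes them 8.41-fold and 6.12-fold higher. MEIS1, which binds DNA together with HOX proteins, was 4.11-fold higher. Its relative MEIS2 (0.26 on the log2 scale) and PBX3 (0.99, or 1.05 with the deposited scaling), another cofactor, lay within 2-fold. GBX2, which sets the hindbrain side of the isthmus, was faint in RA at 86.3 and at the floor in both others. Midbrain and isthmus genes were mostly silent, with 15 of 18 at the floor on both arrays, FGF8, WNT1, LMX1A and LMX1B among them. EN1, a gene of the midbrain-hindbrain border, was 71.4 in RA and at the floor in FGF8, or at least 2.71-fold higher. PAX8 at 108 and 95.3, and GATA2 at 69.2 and 38.9, lay within 2-fold.

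Forebrain and eye-field genes were on the FGF8 side, with 7 of 11 compared lower in RA, 1 higher and a median of -1.94. At the floor on both arrays were 10 of 21. Above it lay 10 in FGF8 and 8 in RA. Some genes were thus compared through 1 array only, and the counts and median follow in part from that. SP8, named above, was as bright in FGF8 as in neuroepithelial cells (1204 and 1351). OTX2, which specifies forebrain and midbrain, was 54.0 in RA, 207 in FGF8 and 2546 in neuroepithelial cells. Its FGF8 level was thus 3.83-fold above that of RA and far under that of the neuroepithelium. LHX2, a cortical selector gene, was 989.7 in RA and 2214 in FGF8, or 2.24-fold lower (-0.68 with probe sets averaged). FEZF2, a zinc-finger factor of the forebrain, was at least 5.78-fold lower (-0.67 with the higher floor) and the orphan nuclear receptor NR2E1, of forebrain stem cells, at least 4.51-fold lower (-0.32 with the higher floor), both at the floor in RA. BCL11B and BCL11A, zinc-finger factors of forebrain neurons, were 7.21-fold and 3.96-fold lower. Unlike the genes named before them, they were dimmer in neuroepithelial cells than in FGF8 (at the floor against 219 and 85.2 against 557). The exception was NR2F1, which is graded across the cortex and also expressed in the hindbrain.

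Among the regional lists, that of the ventral forebrain, where DLX factors drive the birth of GABA neurons, held the highest share of genes on the FGF8 side. All 10 genes compared lay below 0 and 8 were at least 2-fold lower in RA, with a median of -3.53. All 10 lay above the floor in FGF8 and 7 did in RA. Some were thus compared only through FGF8, and the count and median follow in part from that. DLX1 was 249 in RA, 7124 in FGF8 and 712 in neuroepithelial cells, and DLX2 was 282, 6428 and 704. In RA they were 28.6-fold and 22.8-fold lower; the FGF8 array was the highest of the 3 and RA the lowest. DLX5 (48.5 in RA, 879.8 in FGF8) was 18.2-fold lower, DLX6 at least 9.07-fold lower and the antisense transcript DLX6-AS1 10.1-fold lower. The GABA pathway followed. GAD1, which makes GABA from glutamate, was 276 in RA, 3647 in FGF8 and 51.9 in neuroepithelial cells, and SLC32A1, which loads GABA into vesicles, 55.9, 1050.0 and 27.1. They were 13.2-fold and 18.8-fold lower, and GAD2 was at least 4.75-fold lower (-0.39 with the higher floor). NKX2-1, which marks the ventral telencephalon, and LHX6 and LHX8, which act in its interneurons, were at the floor on both arrays. SOX6 and GSX2 lay within 2-fold, GSX2 near the floor. DCX, above, differed in the same direction, and its part in it was not tested.

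Along the back-to-belly axis the list of dorsal genes split, with 2 higher and 2 lower of 8 and a median of -0.084, which was 0.0074 with the deposited scaling. PAX3 and PAX7, paired-box factors of the dorsal midbrain, hindbrain and spinal cord, were 654 and 349 in RA and at the floor in FGF8, or at least 24.8-fold and at least 13.2-fold higher. In contrast ZIC2, a zinc-finger factor of the forebrain and dorsal tube, was 47.6 in RA, 1239 in FGF8 and 1852 in neuroepithelial cells, or 26.0-fold lower. Its relative ZIC1 was bright everywhere, at 7680.0, 9776 and 7138, and within 2-fold, as was PAX6 at 585 and 506. Neural crest markers were higher in 3 and lower in 1 of 5 compared. All 5 lay above the floor in RA and 3 did in FGF8, so the count follows in part from which genes were compared. Beside PAX3, TFAP2A was at least 2.45-fold higher (0.43 with probe sets averaged) and TFAP2B 5.95-fold higher, while SNAI2, at 38.3 in RA and 105 in FGF8, was 2.74-fold lower (-0.14 with the higher floor), and SOX10, FOXD3 and NGFR were at the floor on both arrays. Of 9 ventral and hedgehog genes 2 were higher and 1 lower. The guidance molecule NTN1 was 2.48-fold higher (0.44 with probe sets averaged), SHH itself was faint in RA at 58.8 and at the floor in FGF8, and the hedgehog receptor PTCH1 was 2.16-fold lower (-0.28 with probe sets averaged). GLI2, GLI3 and SMO, which transmit the signal, lay within 2-fold.

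The morphogens had been gone since day 21, and genes of their pathways were unequal only in part. In the retinoid list 2 were higher, 1 lower and 8 within 2-fold of 11, with a median of 0.0077. RDH10, which makes retinal for RA synthesis, was 2933 in RA, 269 in FGF8 and 196 in neuroepithelial cells, or 10.9-fold higher. DHRS3, which turns retinal back, was 3.20-fold higher (0.65 with the higher floor). The RA receptor genes RARA (-0.54 on the log2 scale) and RARB (29.2 in RA and at the floor in FGF8) did not reach 2-fold, and CYP26A1 and CYP26B1, which degrade RA, were at the floor on both. The secreted chemoattractant RARRES2 was at least 3.29-fold lower. FGF receptors and feedback genes split, 3 higher and 4 lower of 16. FGFR3, a receptor of astrocyte precursors, was 1708 in RA and 618 in FGF8, or 2.76-fold higher (0.77 with probe sets averaged), while FGFR1 was level at 509.9 and 498. FGFR2 was 3.65-fold higher (-0.18 without less specific probe sets). That bracketed value came from a probe set near the floor, at 36.4 in RA and 41.2 in FGF8. So the difference of FGFR2 rests on less specific probe sets, another of which was 3.12-fold higher. The FGF-induced factors ETV1 and ETV5 were 4.96-fold and 2.81-fold lower, and the phosphatase DUSP6, which ends ERK signalling, 2.40-fold lower (-0.89 with probe sets averaged). The feedback inhibitor SPRY2 was 2.35-fold higher and SPRY1 was level (-0.062 on the log2 scale).

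**Figure D2:**
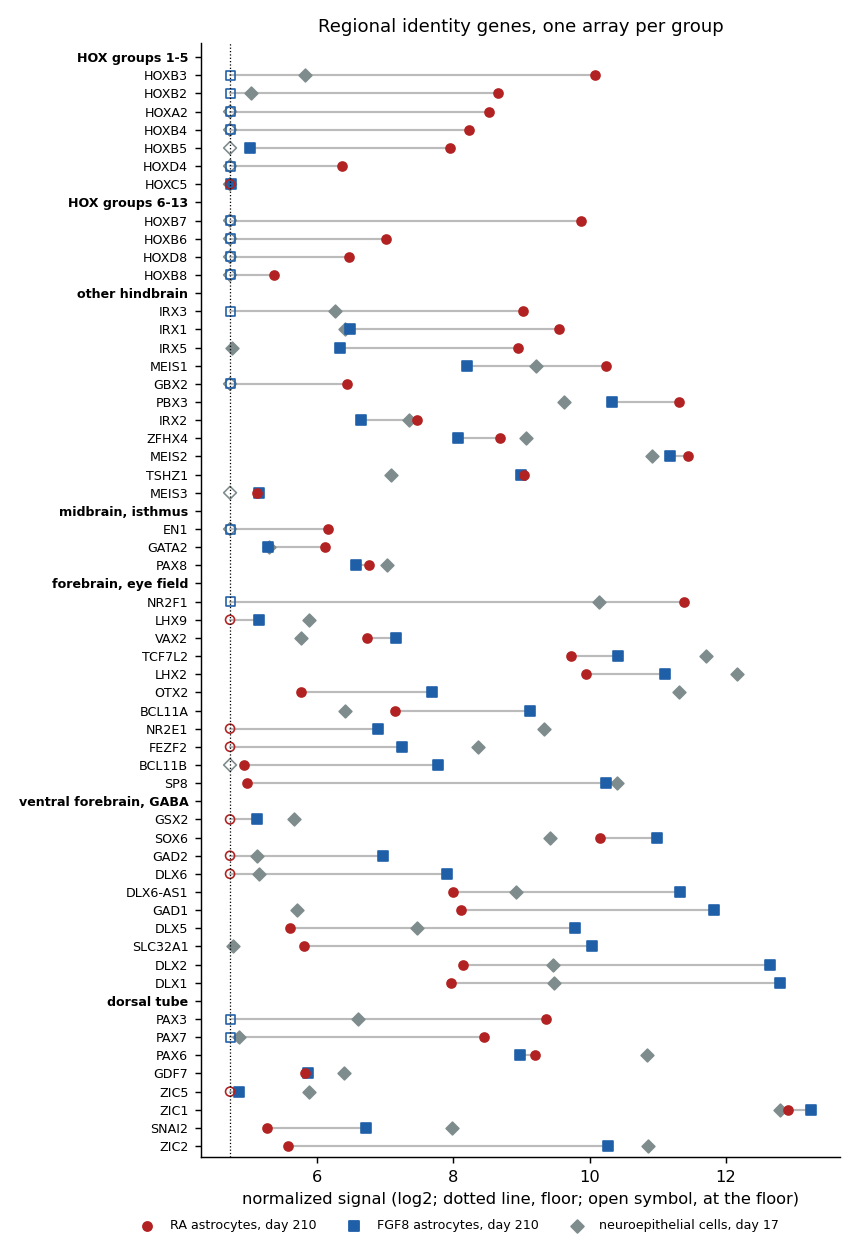
Log2 normalized signal (horizontal) of the compared genes of the HOX, hindbrain, midbrain, forebrain, ventral forebrain and dorsal lists (rows, sorted by difference within a list) in RA (red circles), FGF8 (blue squares) and neuroepithelial cells (grey diamonds), 1 array each, with open symbols at the floor (dotted line). HOX genes from HOXB3 at 1076 to HOXD4 at 82.2 stand to the right in RA alone, and DLX1 and DLX2 reach 7124 and 6428 in FGF8.

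Proliferation genes differed almost as a block. Of 42 G2 and mitosis genes 41 were at least 2-fold lower in RA and 1 was higher, with a median of -2.55, against the 7.86% of all genes that were lower. Of 35 G1-S and S-phase genes 33 were lower and 0 higher, with a median of -1.85. Every gene of both lists was above the floor in FGF8, where 42 and 35 were detected against 41 and 30 in RA. MKI67, the antigen Ki-67 of cycling cells, was 42.9 in RA, 313 in FGF8 and 374 in neuroepithelial cells, or 7.30-fold lower. TOP2A, which untangles replicated DNA, was 210.3, 1640.3 and 2328 in the same order, and CDK1, the kinase that starts mitosis, 514, 2929 and 3042. In each case the FGF8 level lay below the neuroepithelial level but nearer to it than to the RA level. Summed signals of the S-phase list were 7123 in RA, 27971 in FGF8 and 42374.5 in neuroepithelial cells. Those of the mitosis list were 7473, 32396 and 55683 in the same order. The largest differences of the list were those of the spindle protein ASPM (86.7 in RA, 1178 in FGF8; 13.6-fold lower), the checkpoint kinases BUB1B (13.1-fold lower) and TTK (11.2-fold lower), the kinetochore protein NUF2 (10.5-fold lower) and the kinase PBK (10.3-fold lower).

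The promoters of 3 of these genes, those with the largest differences that the RefSeq promoter table holds (GRCh38.p14), are printed because the list differed as a block and mitotic genes are known to share promoter elements. Each line gives the 250 bases before the start site, 5′ to 3′ on the gene's strand. Capitals mark CCAAT, bound by NF-Y, and TTTGAA, known as the cell cycle homology region, in either orientation (ATTGG and TTCAAA). ASPM lies at chr1:197146670-197146919 (minus strand), BUB1B at chr15:40160819-40161068 (plus strand) and NUF2 at chr1:163321704-163321953 (plus strand).
ASPM: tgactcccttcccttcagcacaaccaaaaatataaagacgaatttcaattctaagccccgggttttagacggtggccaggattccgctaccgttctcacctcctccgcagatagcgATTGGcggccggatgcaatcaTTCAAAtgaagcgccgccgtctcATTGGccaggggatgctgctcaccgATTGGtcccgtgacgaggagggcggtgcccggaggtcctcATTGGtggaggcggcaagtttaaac
BUB1B: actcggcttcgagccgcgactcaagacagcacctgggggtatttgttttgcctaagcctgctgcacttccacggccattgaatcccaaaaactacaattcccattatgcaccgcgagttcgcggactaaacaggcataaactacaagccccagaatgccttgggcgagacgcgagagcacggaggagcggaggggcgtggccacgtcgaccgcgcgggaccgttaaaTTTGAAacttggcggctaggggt
NUF2: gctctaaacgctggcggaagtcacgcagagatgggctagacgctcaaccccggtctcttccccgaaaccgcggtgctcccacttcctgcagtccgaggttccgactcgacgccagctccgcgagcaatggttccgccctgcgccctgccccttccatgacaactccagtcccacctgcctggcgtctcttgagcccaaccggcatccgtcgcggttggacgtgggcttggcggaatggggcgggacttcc

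The ASPM window held CCAAT 4 times, the nearest 25 bases before the start, and TTTGAA once, 113 bases before it. That of BUB1B held TTTGAA once, 23 bases before the start, and NUF2 held neither. Over the 45 promoters of mitosis-list genes in the table, TTTGAA was present in 21, or 46.7%, against 13.3% of all 35116 promoters of the same length and 1 of 39 of S-phase genes. CCAAT was present in 73.3% of mitosis-list promoters, 64.1% of S-phase promoters and 32% of all, but also in 66.7% of HOX-list promoters. The HOX windows were drawn from the whole lists, with genes at the floor on both astrocyte arrays or not analysed included. For HOX genes the letters AGGTCA, the core of retinoid receptor sites, were searched on both strands and lay in 0 of 27 windows, against 12.1% of all promoters, which says only that these letters are not in these windows. A match is likewise a description of letters and not of a bound site.

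S-phase genes lay on the same side. RRM2, the ribonucleotide reductase subunit that limits DNA building blocks, was 166 in RA, 1869 in FGF8 and 3172 in neuroepithelial cells, or 11.2-fold lower. DTL, a ubiquitin ligase adaptor of S phase, was 9.18-fold lower, and the replicative helicase subunits MCM5 (77.1 and 498) and MCM2 (189 and 995) were 6.45-fold and 5.25-fold lower. At the floor in RA were CDC45 and ORC1, parts of the replication machinery, the cyclin CCNE1, the licensing factor CDT1 and the repressor E2F8. PCNA, the sliding clamp, was 3.23-fold lower and remained bright in RA at 1039. Within 2-fold were GINS4 and POLA1. CDC25B, a phosphatase that activates CDK1, was the member of the mitosis list that was higher in RA, at 2104 and 984. Markers of neuroepithelial and progenitor cells differed beside these genes, with 0 higher and 5 lower of 13 compared and a median of -0.34. Of 15 markers 12 lay above the floor in RA, 11 in FGF8 and 15 in neuroepithelial cells, with summed signals of 20515, 22598 and 42906, and their part in the proliferation genes was not tested. SOX1, a factor of early neural progenitors, was 587 in RA, 1517 in FGF8 and 1861 in neuroepithelial cells, or 2.58-fold lower (-0.50 with probe sets averaged), DACH1 2.94-fold lower (-0.80 with probe sets averaged) and HMGA2, a chromatin protein of young stem cells, 2.23-fold lower (0.25 without less specific probe sets). SOX2, a stem cell factor that astrocytes keep, was 7281 in RA and 9242 in FGF8, within 2-fold. Genes of early G1 did not share the shift. CCND2, a G1 cyclin, was 7035 in RA and 8072 in FGF8, and CDK4 1961 and 2604. Dimmer probe sets of CCND2 were split, at 2.80-fold lower, 2.19-fold lower and 1.40-fold higher in RA, so its level depends on the probe set. Of 8 early G1 genes 1 passed 2-fold, the transcription factor MYC at 60.5 and 439, or 7.25-fold lower. CCND1 was at the floor on both astrocyte arrays and 1067 in neuroepithelial cells. Cell cycle inhibitors were mixed, with 2 higher and 3 lower of 15. CDKN1A, which encodes p21, was 1369 and 992, and CDKN1B, p27, 2159.8 and 3438, both within 2-fold. TP53INP1, a p53 target, was 5.91-fold lower (-0.85 with probe sets averaged).

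Receptors for growth factors differed one by one, with 4 higher and 2 lower of 15. The EGF receptor EGFR was level, at 528 in RA and 507 in FGF8. PDGFRA was 7.56-fold lower in RA, and ERBB3, a neuregulin receptor, at least 11.6-fold lower. The neurotrophin receptors NTRK2 and NTRK3 went the other way: NTRK2, which binds BDNF, was 1660.3 in RA, 107 in FGF8 and 60.9 in neuroepithelial cells, or 15.6-fold higher, and NTRK3 was 4.46-fold higher.

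**Figure D3:**
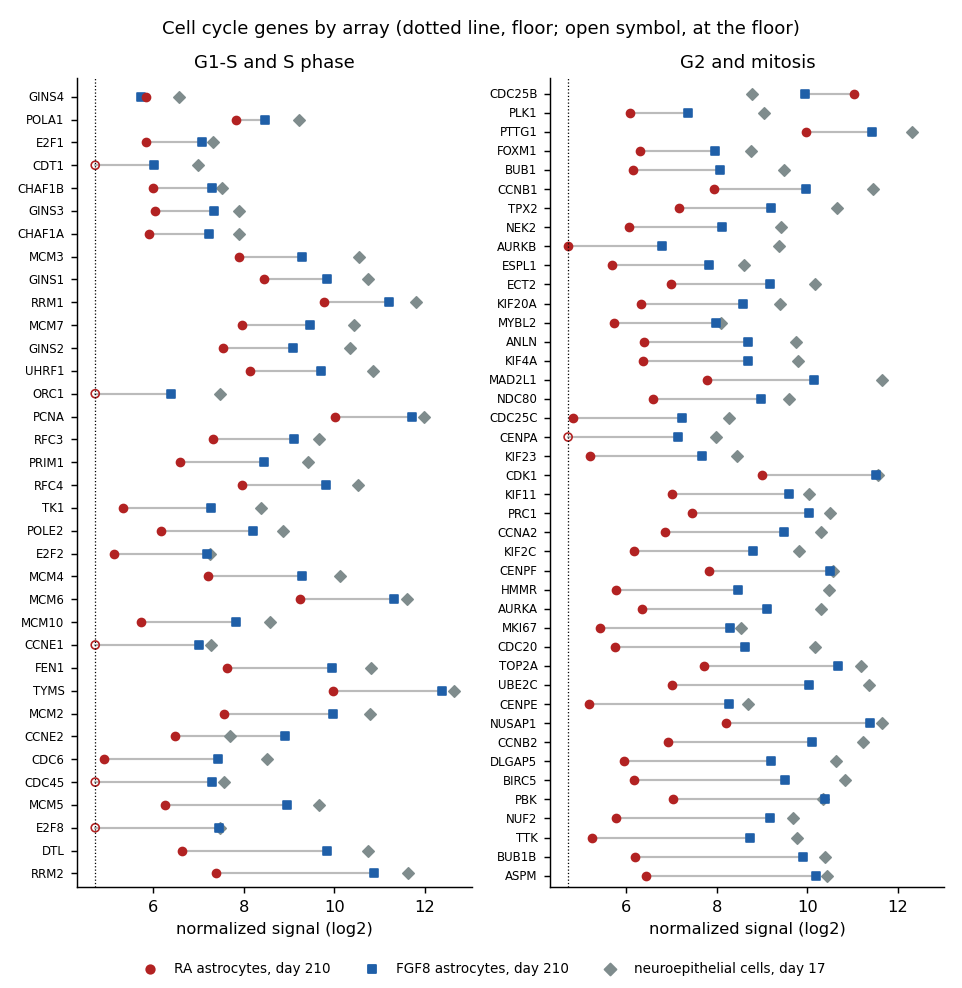
Log2 normalized signal (horizontal) of 35 G1-S and S-phase genes (left) and 42 G2 and mitosis genes (right) in RA (red circles), FGF8 (blue squares) and neuroepithelial cells (grey diamonds), 1 array each, sorted by difference, with open symbols at the floor (dotted line). RA lies left of FGF8 for all but GINS4 and CDC25B, as for TOP2A with 210.3 in RA and 1640.3 in FGF8.

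Among surface genes, the MHC class II group, which presents peptides to helper T cells, was higher in RA in all 11 members compared (median 2.97), against 9.69% of all genes. The remaining members HLA-DOB and CTSS were at the floor in RA and FGF8. CD74, the invariant chain, had a signal of 6756 in RA, 529 in FGF8 and 28.5 in neuroepithelial cells, or 12.8-fold higher. HLA-DRA was 6797, 869.6 and at the floor in the same order and HLA-DPA1 7869.9, 945 and 41.5. RA was the highest for each and FGF8 stood between it and the neuroepithelium. The peptide-loading chains HLA-DMA and HLA-DMB were 7.82-fold and 4.15-fold higher, and CIITA, the transactivator of the whole group, 3.54-fold higher (0.61 with probe sets averaged) at 229.8 and 65.0. Probe sets of HLA genes can bind several family members, so their order among themselves is uncertain. Of 14 microglia markers 12, PTPRC and AIF1 among them, were at the floor on both arrays, and a part of such cells in these values was not tested. MHC class I presentation genes differed less, 4 higher and 0 lower of 15 (median 0.44). HLA-B was 2.13-fold higher and HLA-E 2.51-fold higher, while the peptide transporter TAP1 (494 and 438) and the light chain B2M (16615 and 12259) were within 2-fold. Of 20 interferon-stimulated genes 6 were higher and 1 lower, such as IFIT1, 4.56-fold higher, GBP1, at least 6.01-fold higher (0.73 with the higher floor), and IFI44L, at least 6.23-fold lower (-0.78 with the higher floor).

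Chemokines and cytokines were mostly silent, 13 of 24 at the floor on both arrays, but held a pair of large differences. CXCL12, which guides migrating neurons and progenitors through CXCR4, was at the floor in RA, 1054 in FGF8 and 133 in neuroepithelial cells, or at least 40.0-fold lower; a separate probe set was at least 17.9-fold lower. CCL2, a monocyte attractant, was at the floor in RA, 725 in FGF8 and 1107 in neuroepithelial cells, or at least 27.5-fold lower. Both were seen in FGF8 and neuroepithelial cells and not in RA. IL33, an alarmin, was at least 2.42-fold lower. The cytokine LIF, at 71.1 in RA against the floor, was at least 2.70-fold higher. Cytokine receptors split evenly, 3 higher and 3 lower of 20. EDNRB, the endothelin receptor of astrocytes, was 2146 in RA and 397 in FGF8, or 5.41-fold higher, and TNFRSF21, a death receptor, 5.28-fold lower. LIFR was 2.75-fold lower, whereas its signalling partner IL6ST (0.74 on the log2 scale) and OSMR (-0.18) lay within 2-fold, and CXCR4 was 1864 and 2341.

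Secreted growth factors leaned to RA, 4 higher and 1 lower of 14, although the median of 0.44 turned to -0.11 without the less specific probe set types. ANGPTL4, a regulator of lipoprotein lipase, was 1043 in RA, 143 in FGF8 and at the floor in neuroepithelial cells, or 7.30-fold higher, and the fibroblast growth factor FGF1 777 and 158 in the astrocyte arrays, or 4.91-fold higher. PDGFC was bright on both, 0.51 apart on the log2 scale. NRG1, a ligand of ERBB receptors, was 2.95-fold higher (-0.37 without less specific probe sets). That bracketed value came from a dim probe set, at the floor in RA and 34.1 in FGF8. So the difference of NRG1 rests on a less specific probe set. IGF-binding proteins, which hold insulin-like growth factors outside cells, went to opposite ends. IGFBP5 was 3885 in RA, 130.2 in FGF8 and 799 in neuroepithelial cells, or 29.8-fold higher, and IGFBP2 2.02-fold higher. IGFBPL1 was 167 in RA, 3876 in FGF8 and 531 in neuroepithelial cells, or 23.3-fold lower, IGFBP7 5.34-fold lower and IGFBP4 at least 2.63-fold lower. So 2 of 7 were higher in RA and 3 lower.

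Among BMP and TGF-beta ligands and antagonists 1 was higher and 6 were lower of 17. The list as a whole did not lean, with 9 above 0 and 8 below. Its median of 0.036 turned to -0.12 with the deposited scaling. Some of the lower genes, GREM1, BAMBI and NOG, were at the floor in RA and were compared only through FGF8. TGFB1 was 358 in RA and 61.1 in FGF8, or 5.87-fold higher (0.40 without less specific probe sets). TGFB2 was bright and level, at 2123 and 1789. The BMP antagonists CHRDL1 and GREM1 were 12.6-fold and at least 3.56-fold lower, and NOG at least 2.04-fold lower (-0.95 with the deposited scaling); CHRDL1 was 29.0, 365 and 739 in RA, FGF8 and neuroepithelial cells. WNT modulators also split, 2 higher and 3 lower of 9. WNT5A, a non-canonical ligand, was at least 6.74-fold higher (0.90 with the higher floor) at 178 against the floor, and the secreted DKK3 9788 and 2696, or 3.63-fold higher. SFRP4 and SFRP1, which bind WNT ligands, were 5.45-fold and 4.23-fold lower. In the Notch list 1 was higher and 5 were lower of 15. Besides DLK1, the target genes HEY1 (56.4 and 455; 8.06-fold lower), HEY2 (at least 3.16-fold lower) and HES5 (3.06-fold lower) were lower in RA, as was DNER, a neuronal ligand, at 3.42-fold lower. The receptors NOTCH1 and NOTCH2 and the target HES1 lay within 2-fold.

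Factors that act on synapses held some of the largest contrasts. SPARCL1 was 6099 in RA, 109 in FGF8 and 97.3 in neuroepithelial cells, so RA alone was high, while its relative SPARC, which opposes it, was 9644, 3809 and 4602 in the same order, or 2.53-fold higher. Neurocan, NCAN, a proteoglycan of perineuronal matrix, was the reverse, at 253, 3340.3 and 143, or 13.2-fold lower. The thrombospondin THBS1 was 4.37-fold higher (0.47 without less specific probe sets) and THBS2 0.57 apart on the log2 scale. In all, 6 were higher and 3 lower of 18. The lipid carrier APOE was 2.81-fold higher, CST3, a secreted protease inhibitor, 2.29-fold higher (0.40 with probe sets averaged), and the matrix protein tenascin C, TNC, level at 7248 and 7773. Complement and serum-type proteins leaned to RA, 6 higher and 1 lower of 17. SERPING1, which inhibits the first complement component, was 1847 in RA, 152 in FGF8 and 291 in neuroepithelial cells, or 12.1-fold higher, and C1S and C1R, its target proteases, 3.02-fold and 2.66-fold higher. AGT, the angiotensin precursor made by astrocytes, was 3135 in RA and 299.7 in FGF8, or 10.5-fold higher, and the pentraxin PTX3 3.72-fold higher. The protease inhibitor A2M was level at 9718 and 8167.

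Matrix genes were unequal in both directions. Of 17 fibrillar matrix genes 5 were higher and 6 lower. The collagen COL5A2 was 5213 in RA, 487 in FGF8 and 1788 in neuroepithelial cells, or 10.7-fold higher, and the elastin-binding FBLN5 was 211 in RA and at the floor in FGF8. LOX, which crosslinks collagen, was 3.34-fold higher. Lower in RA were COL2A1 (7.49-fold lower), COL1A2 (7.19-fold lower) and fibronectin, FN1, at 182, 965 and 4669.9 in RA, FGF8 and neuroepithelial cells, or 5.30-fold lower. For FN1 both astrocyte arrays lay far under the neuroepithelium. Basement membrane and integrin genes were higher in 8 and lower in 4 of 23 (median 0.32). AGRN, agrin, was 1698 and 331, or 5.13-fold higher, and the laminin chain LAMB2 4.40-fold higher, whereas the chain LAMB1 was 4.58-fold lower. The laminin receptor ITGA6 was 10.2-fold lower, ITGA7 was 2.25-fold higher, and ITGB1, their common partner, was level at 4798 and 4776. Extracellular proteases leaned to RA, 7 higher and 2 lower of 18 (median 0.72). The plasminogen activators PLAT and PLAU were 4.64-fold and 3.22-fold higher, the aggrecanase ADAMTS5 at least 7.38-fold higher and the membrane protease MMP14 2.80-fold higher. Its substrate MMP2, a gelatinase, was 2.54-fold lower (-0.45 with probe sets averaged).

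Adhesion molecules were higher in 9 and lower in 2 of 22. After TENM4, its relative TENM2 was 499 in RA and 30.3 in FGF8, or 16.5-fold higher. CD99 was 10929 and 2798, or 3.91-fold higher, ALCAM 2.97-fold higher, CD24 2.79-fold higher and CHL1 2.45-fold higher (0.68 with probe sets averaged). L1CAM, an adhesion protein of axons, was at least 2.93-fold lower (-0.78 with probe sets averaged), while NCAM1 and the cadherin CDH2 lay within 2-fold. Of 28 axon guidance genes 9 were higher and 3 lower (median 0.51). The ephrin EFNB3, made by the spinal midline, was 2610.5 in RA, 282 in FGF8 and 369 in neuroepithelial cells, or 9.25-fold higher. The repellents SLIT1 and SLIT2 were 6.81-fold and 5.65-fold higher, and their receptor ROBO1, at 3864 and 2495, was within 2-fold. The ephrin EFNA5 was at least 6.75-fold lower (-0.90 with the higher floor) and EPHA7, an ephrin receptor, 5.71-fold lower. Another receptor of the A class, EPHA5, was at the floor on both arrays. Astrocyte channels, transporters and receptors differed in 4 genes upward and 1 downward of 14. GABBR2, a GABA-B receptor subunit, was 4763 in RA, 532 in FGF8 and at the floor in neuroepithelial cells, or 8.96-fold higher, whereas KCTD12, which binds that receptor, was on the FGF8 side. The thyroid hormone transporter SLCO1C1 was 7.03-fold higher and ATP1B2, of the sodium pump, 2.66-fold higher. The potassium channel KCNJ10 (-0.70 on the log2 scale), the glutamate transporter SLC1A2 (-0.40) and the gap junction protein GJA1 (0.17) lay within 2-fold. Among glutamate and GABA receptor subunits 1 was higher and 4 were lower of 9. All 9 lay above the floor in FGF8 and 6 did in RA. Some were thus compared only through FGF8, and the count follows in part from that. The median of -0.87 turned to 0.33 with the higher floor. The kainate receptor subunit GRIK1 was 482 in RA and 46.7 in FGF8, or 10.3-fold higher, and its relative GRIK3 62.6 and 459.9, or 7.34-fold lower. The AMPA receptor subunits GRIA1, GRIA2 and GRIA3 lay within 2-fold.

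**Figure D4:**
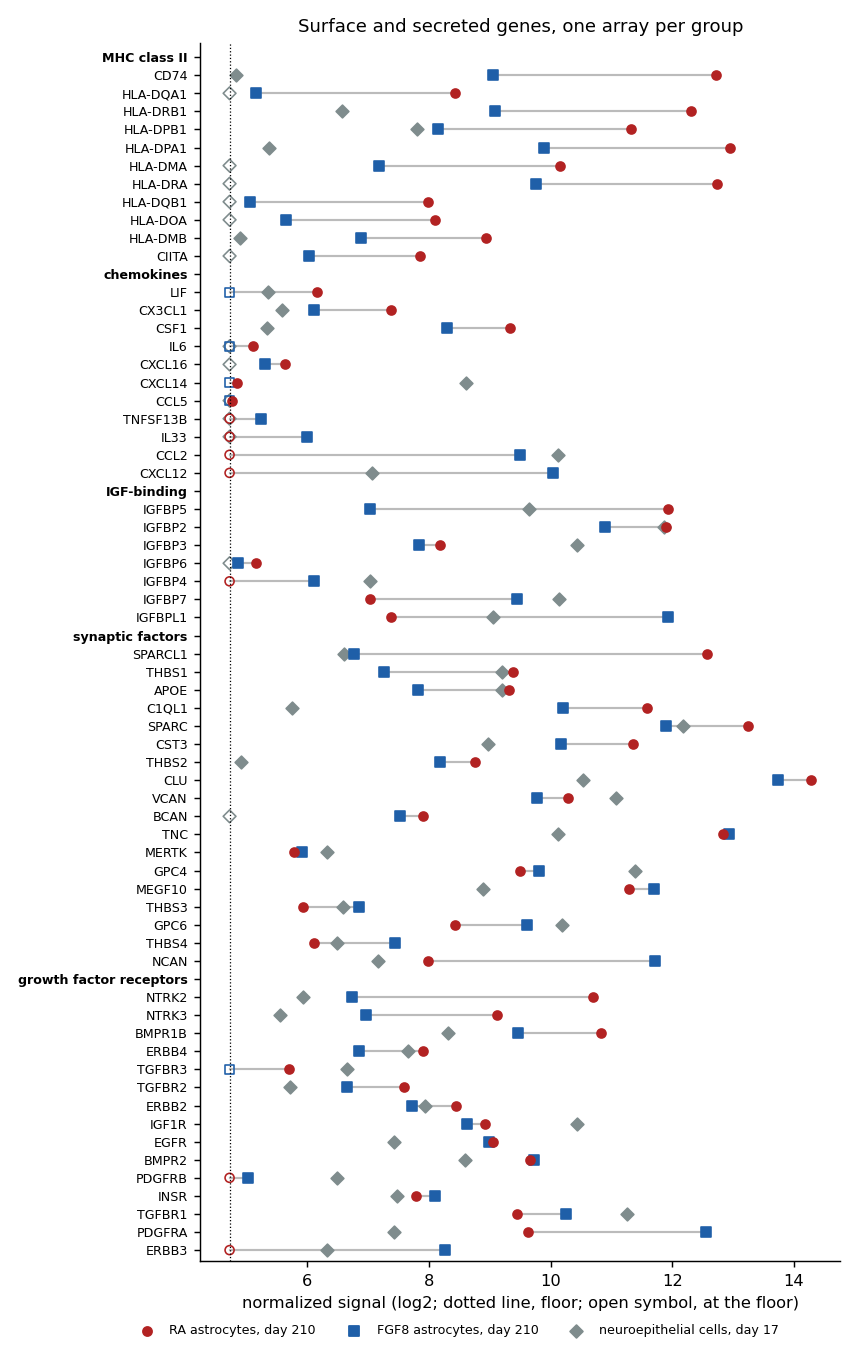
Log2 normalized signal (horizontal) of the compared genes of the MHC class II, chemokine and cytokine, IGF-binding protein, synaptic factor and growth factor receptor lists (rows, sorted by difference within a list) in RA (red circles), FGF8 (blue squares) and neuroepithelial cells (grey diamonds), 1 array each, with open symbols at the floor (dotted line). MHC class II genes are all highest in RA, and CXCL12, with 1054, and PDGFRA, with 5997, are highest in FGF8.

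**Figure D5:**
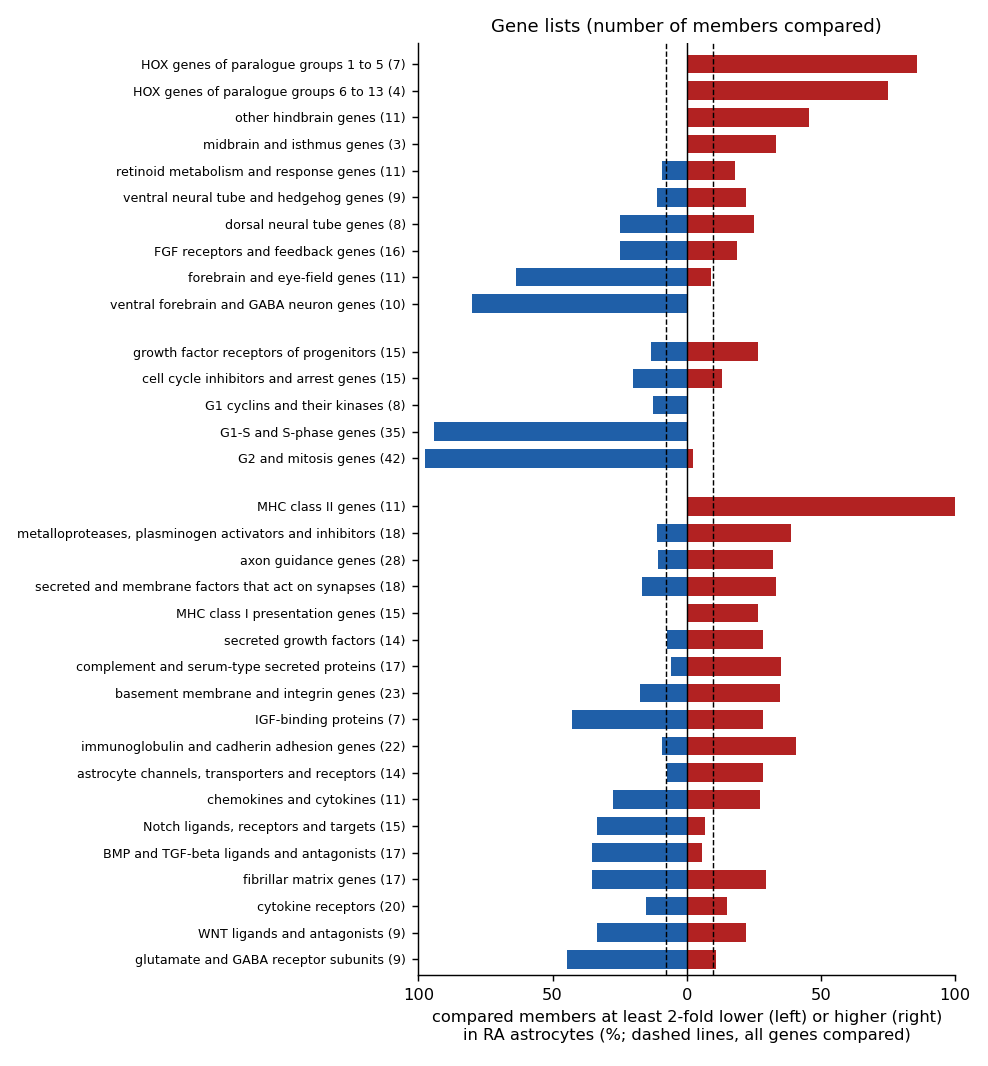
Percentage of the compared members of each gene list that were higher (red, right) or lower (blue, left) in RA by 2-fold or more, with the number compared in brackets and dashed lines at the shares of all genes, 9.69% higher and 7.86% lower; 1 array per group, lists grouped into regional identity, proliferation and surface or secreted genes. The bars that reach furthest belong to both HOX lists and MHC class II on the right, and to forebrain, ventral forebrain, S-phase and mitosis genes on the left.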

How the data were processed

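Total RNA was labelled with biotin and hybridised to Affymetrix human arrays, per the labels' protocols. For 54675 probe sets on 3 arrays the authors deposited 1 linear intensity each. These had been scaled, as trimmed means (without the lowest and highest 2%) were about 150.0 on every array, with a signal algorithm not given in the sources used here. All 54613 non-control probe sets were quantile normalized over the 3 arrays (Python 3.11.15, pandas 2.3.3), raised to a floor at their median and brought to log2. Of these, 41091 carried 1 gene symbol; the 1801 with several and 11721 with none were left out. Gene identifiers of 41037 matched a human gene table (GRCh38.p14). Each gene was represented by its brightest probe set on average, an _x_at probe set (prone to cross-hybridise) only where it had no other. No test between groups was possible, so calls rest on a size of 2-fold. The steps were tested on simulated data. Genes to name were taken from the 10 largest measured differences and 6 largest bounds in each direction, up to 5 members per direction of each list, the brightest where few passed, and a fixed set of markers; other list members, and members of marker lists, were added for contrast after their values were seen. The comparison, lists and members were chosen with earlier results of these data known. Genes that reveal sex were not named. Alternatives were other scalings, floors, probe set rules and sizes.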

Additional observations from a re-analysis of the deposited data

How the results depend on the processing

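The counts of higher and lower genes, 1255 and 1018, depended on the floor and the size threshold. They were 2222 and 1721 with a floor at the 30th percentile, 784 and 603 at the 70th, and 3633 and 3181 without one; a size of 1.5-fold gave 2525 and 2150, and 4-fold 324 and 343. Under the scaling and probe set alternatives the counts stayed within 1.5 times. Of the genes past 2-fold 55.2% were higher, and 49.9% with equal array medians. The median of the forebrain list was -0.90 at the 70th percentile floor, -0.59 without a floor and -1.16 without the less specific probe sets. That of the ventral forebrain list was -2.77 without a floor and -2.60 with probe sets averaged, and that of HOX groups 1 to 5 was 1.95 at the higher floor, all in the direction reported. The medians of the S-phase, mitosis and MHC class II lists moved by less than 1.5-fold under the scaling, floor and probe set alternatives. FGFR2 turned to -0.18, NRG1 to -0.37 and HMGA2 to 0.25 without the less specific probe sets. For FGFR2 and NRG1 these values came from probe sets near the floor. Of 274 genes followed, 195 kept their direction and their side of 2-fold under every scaling, floor and probe set alternative that gave a value. Of 37 list medians 14 turned sign at least once, such as that of chemokines and cytokines to -1.06 with the higher floor and that of the Notch list to -1.64 without the less specific probe sets. The cause was not tested. No paired analysis was possible because each group has 1 array. Signals near the floor limit what can be said of dim genes such as HOXC5, GBX2 and SHH.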
